A study of Mus musculus with 2 samples.

Results

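The 10 genes described here encode the enzymes and the chaperone that modify, fold, trim and crosslink collagen: P4ha1, P4ha2, Plod1, Plod2, Plod3, Serpinh1, Lox, Loxl1, Loxl2 and Bmp1. They were taken by symbol, and all 10 were found among the 21829 gene symbols with a value. Expression was measured by RNA sequencing in 2 libraries of C2C12, an immortalised line of mouse myoblasts. 1 library came from WT cells and 1 from Gne KO cells, and both lines were grown in DMEM with serum and gentamicin. The KO line was made with Cas9 and a guide against Gne, the gene of the bifunctional enzyme of sialic acid synthesis, and single cells were cloned, so the library may stand for 1 clone. The question behind the comparison is how loss of Gne changes the expression of these myoblasts, of which extracellular matrix production was one aspect. With 1 library per line no difference has a replicate check, and no test was run. Values were taken as FPKM, as the deposited data name no unit. FPKM corrects fragment numbers for transcript length and depth, so levels of different genes can be set side by side.

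Fibrillar collagen is built from procollagen chains that are modified in the endoplasmic reticulum (ER). Prolyl 4-hydroxylases convert prolines to hydroxyproline, which stabilises the triple helix, lysyl hydroxylases act on lysines, and the chaperone HSP47, the product of Serpinh1, binds the folded helix. Outside the cell, propeptides are removed by proteinases such as Bmp1, and lysyl oxidases start the covalent crosslinks within and between the collagen molecules of a fibril.

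Gne RNA stood at 6.67 FPKM in WT and at 7.34 FPKM in the KO-labelled library. An insertion of a base pair, the edit described for this line, need not lower the RNA, so this level does not check the label. Of 7 myoblast markers, 5 passed the filter on low values, a mean of at least 1 FPKM over both libraries, and Pax7 was listed at 0 in both. All 7 together summed to 198.7 FPKM in WT and 25.8 FPKM in the KO-labelled library, where Myod1, at 0, and Des, Cdh15 and Chrna1 were more than 2-fold lower and Myf5 was more than 2-fold higher. Des, the muscle intermediate filament desmin, had 97.6 and 3.84 FPKM. The 8 fibroblast markers summed to 73.0 and 76.8 FPKM, almost all of it from Twist2 and Pdgfra, and Lum, Thy1 and Tcf21 were at 0 in both. Dcn had 0.272 and 1.68 FPKM, Dpt 0.041 and 0.493 FPKM and Pi16 0.068 and 0.085 FPKM. These last were higher in the KO-labelled library but lay under the filter. The 6 epithelial markers summed to 0.068 and 0.02 FPKM and the 6 immune markers to 2.90 and 1.14 FPKM, of which Cd68 held 2.85 and 1.06. In bulk RNA, fewer cells of a type and less RNA per cell cannot be told apart, and the part of the myoblast markers in the values below was not tested.

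Of the members above 1 FPKM, Loxl1 differed most between the libraries, at 15.2 FPKM in WT and 42.3 FPKM in the KO-labelled library. The abundant members Serpinh1 and Lox had nearly equal values in both, and the hydroxylases had nearly equal or moderately higher values in the KO-labelled library. Log2 fold changes were taken as log2((KO + 1)/(WT + 1)), on which low genes appear to change less than they do. The filter left 10542 genes. Of the 10 members, 9 passed it, and Loxl2 did not. 1 of the 9, Loxl1, was more than 2-fold higher in the KO-labelled library, against 2.84% of all genes tested. A fall beyond 2-fold was found for 0 of the 9, with 3.43% of all genes tested past that limit. A count of 1 among 9 members is too small to set the group apart from those shares. The log2 fold change was above 0 for 6 of the 9 and below 0 for 3, against 50.7% and 49.3% of all genes. Their median was 0.21, and that of all genes tested was 0.0061. Of the 9 members 5 lay inside the middle 50% of all genes, between -0.21 and 0.23, and the other 4 lay above it.

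**Figure D1:**
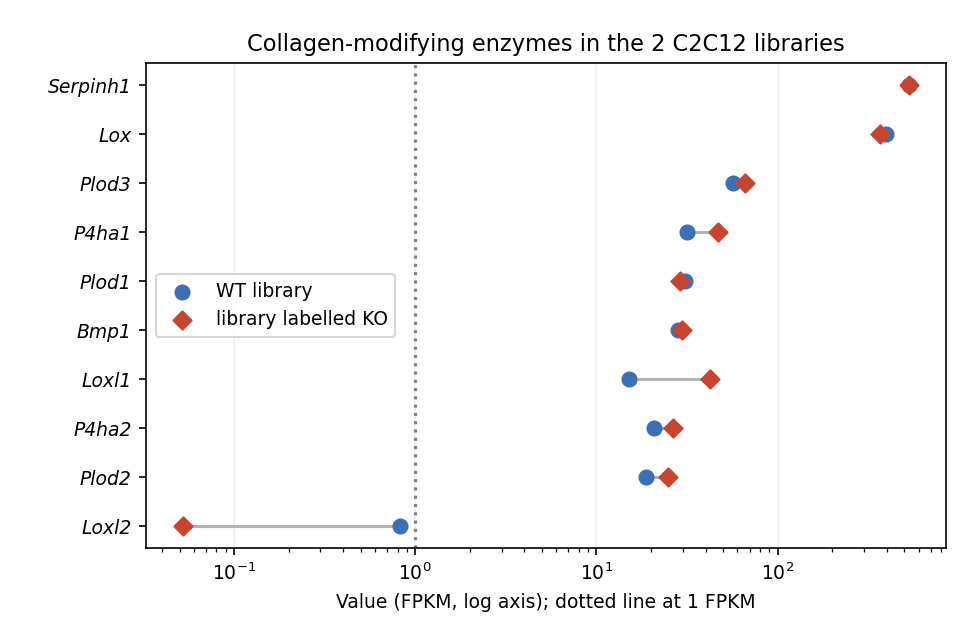
Values of the 10 members in FPKM on a log axis, with the WT library as circles and the library labelled KO as diamonds, ordered by their mean. The symbols nearly coincide for Serpinh1 and Lox at the top, while Loxl1 runs from 15.2 to 42.3 FPKM and Loxl2 lies under 1 FPKM in both libraries.

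The members spanned a wide range of levels. In the WT library Serpinh1 was highest at 533.9 FPKM, followed by Lox at 396 FPKM, and then by Plod3 at 56.9 FPKM. These 3 held the same places in the KO-labelled library. P4ha1, Plod1, Bmp1, P4ha2, Plod2 and Loxl1 lay between 15.2 and 31.8 FPKM in the WT library, in that order, and Loxl2 was last. Loxl1 was 9 in the order of the 10 members in the WT library and 5 in the KO-labelled library, the largest step of any member. The spread between replicates is unknown, so neighbours in this order cannot be separated.

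P4ha1 and P4ha2 encode the catalytic alpha subunits of prolyl 4-hydroxylase, and both had higher values in the KO-labelled library, by less than 2-fold. P4ha1 had 31.8 FPKM in WT and 47.0 FPKM in the KO-labelled library, or a log2 fold change of 0.55. That placed it at percentile 91.4 of the changes of all genes tested. P4ha2 had 20.9 FPKM in WT and 26.3 FPKM in the KO-labelled library, or a log2 fold change of 0.32. P4ha3, the remaining alpha subunit and not a member, had 8.46 and 14.9 FPKM, a log2 fold change of 0.75. All alpha subunits were thus higher in the same library, and their sum was 61.1 FPKM in WT and 88.2 FPKM in the KO-labelled library. P4hb, the beta subunit and protein disulfide isomerase that holds the alpha subunits in solution, had 493 and 467 FPKM. Alpha subunit FPKM per P4hb FPKM, a ratio within a library that needs no scaling between libraries, was 0.124 in WT and 0.189 in the KO-labelled library. The FPKM of P4hb RNA remained above the sum of the alpha subunits in both libraries. The makeup of the alpha pool moved little, with P4ha1 at 52.0% of it in WT and 53.3% in the KO-labelled library.

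The promoters of P4ha1 and P4ha2, higher in the KO-labelled library, and of Serpinh1, the highest member with nearly equal values, are shown from RefSeq on GRCm38.p6. Each holds the 250 bases before the gene's start and the 50 after it, at chr10:59323046-59323345 on the plus strand, chr11:54100674-54100973 on the plus strand and chr7:99353190-99353489 on the minus strand. Capitals mark ACGTG or GCGTG on either strand, the core letters of the hypoxia response element, which is known from several genes of this family.
P4ha1: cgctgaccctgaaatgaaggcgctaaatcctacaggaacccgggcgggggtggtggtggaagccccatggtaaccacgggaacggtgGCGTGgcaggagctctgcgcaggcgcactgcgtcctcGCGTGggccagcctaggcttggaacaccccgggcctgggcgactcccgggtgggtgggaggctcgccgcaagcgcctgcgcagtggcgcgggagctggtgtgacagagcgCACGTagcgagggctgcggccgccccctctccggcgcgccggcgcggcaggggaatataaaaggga
P4ha2: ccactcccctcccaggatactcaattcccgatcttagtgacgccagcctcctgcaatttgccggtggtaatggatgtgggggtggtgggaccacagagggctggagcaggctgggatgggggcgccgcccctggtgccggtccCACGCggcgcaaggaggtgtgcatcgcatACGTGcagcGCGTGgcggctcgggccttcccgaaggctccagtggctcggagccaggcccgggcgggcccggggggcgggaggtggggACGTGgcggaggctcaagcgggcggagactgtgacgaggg
Serpinh1: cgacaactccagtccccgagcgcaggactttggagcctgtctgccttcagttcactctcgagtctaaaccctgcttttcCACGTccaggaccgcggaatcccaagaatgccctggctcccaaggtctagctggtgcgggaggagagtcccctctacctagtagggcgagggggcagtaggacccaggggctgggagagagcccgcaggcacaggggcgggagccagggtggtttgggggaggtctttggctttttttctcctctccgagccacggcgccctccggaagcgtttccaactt
P4ha2 held 4 matches, P4ha1 held 3 and Serpinh1 held 1. Of the 10 members, 5 had a promoter in the table, and besides these the promoter of Plod3 held 4 matches and that of Plod1 held 2. All 5 thus held at least 1 match, and 43.8% of all 32851 promoters of this length did. The letters ACGTG were found in 4 of the 5 and in 19.6% of all promoters, and GCGTG in 4 of the 5 and in 32.4% of all. The promoters shown were rich in G and C, at 70.3% for P4ha1 and for P4ha2 and 62.3% for Serpinh1, against a median of 52.7% for all promoters. The letters that follow were also sought on either strand, and at any position before or after the start. CCAAT was found in Plod3 alone of the 5 and in 37.4% of all promoters. TATAAA was found in P4ha1 and Plod1 and in 13.6% of all, and TGACGTG, which contains ACGTG, in 0 of the 5 and in 2.01% of all. Such a match is a description of letters and not a binding site. The relation of the match numbers to the values of the genes was not tested. The promoters of Plod2, Lox, Loxl1, Loxl2 and Bmp1 were not analysed here.

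A list of 13 hypoxia-related genes, Hif1a among them, was examined as well, and its relation to the values of the members was not tested. Of the 11 that passed the filter 4 had a log2 fold change above 0 and 7 below 0, against 49.3% of all genes below 0, and the median was -0.19. Ndrg1, a stress-responsive gene, was the 1 gene of the list beyond 2-fold, a limit passed downward by 3.43% of all genes, with 64.4 FPKM in WT and 24.8 FPKM in the KO-labelled library. The highest log2 fold change of the list, at 0.75, was that of Egln1, an oxygen-sensing prolyl hydroxylase, with 21.5 and 36.8 FPKM.

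The lysyl hydroxylases differed little between the libraries. Plod2, the enzyme known for hydroxylation of the collagen telopeptides, had 18.8 FPKM in WT and 24.9 FPKM in the KO-labelled library, or a log2 fold change of 0.39. Plod3, which also carries glycosyltransferase activity, had 56.9 and 66.2 FPKM, a log2 fold change of 0.21. Plod1, which acts on the helical part of the chain, had 30.6 and 29.1 FPKM, a log2 fold change of -0.07. Plod2 thus lay above the middle 50% of all genes, and Plod1 and Plod3 inside it. The sum over the family was 106.4 FPKM in WT and 120.3 FPKM in the KO-labelled library. The share of Plod2 in this sum was 17.7% and 20.7%, that of Plod1 was 28.8% and 24.2%, and Plod3 held the largest share in both, at 53.5% and 55.1%. Plod3 overlaps Znhit1 on the opposite strand, which had 71.1 and 63.9 FPKM. Whether reads were counted by strand is not given in the sources used here, so shared reads cannot be told apart.

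Serpinh1 encodes HSP47, the chaperone dedicated to procollagen. It had 533.9 FPKM in WT and 532.8 FPKM in the KO-labelled library, or a log2 fold change of -0.0029. Its level lay at percentile 98.6 of the genes tested in WT and 98.5 in the KO-labelled library, so the gene was among the most abundant in both. Bmp1, the procollagen C-proteinase, which also activates lysyl oxidase, had 28.3 and 29.8 FPKM, a log2 fold change of 0.07.

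The lysyl oxidases, copper-dependent enzymes that oxidise lysines of collagen and elastin for crosslinking, included the member with the largest difference and one with nearly equal values. Lox had 396 FPKM in WT and 366 FPKM in the KO-labelled library, or a log2 fold change of -0.11. Loxl1, known for its role in elastic fibres, had 15.2 and 42.3 FPKM, which is 2.78 times the WT value and a log2 fold change of 1.42. That change lay at percentile 98.6 of all genes tested. Loxl2, which acts on basement membrane collagen among others, had 0.821 FPKM in WT and 0.052 FPKM in the KO-labelled library. Loxl2 was thus lower where Loxl1 was higher, but both of its values lay under 1 FPKM, and its log2 fold change of -0.79 depends on the pseudocount. With a pseudocount of 0.1 it was -2.60. Without a filter and with that pseudocount, a setting added with the data known, 1 of the 10 members (Loxl1) was more than 2-fold higher and 1 (Loxl2) lower, against 3.94% and 4.12% of all genes listed. Of the family members outside the list, Loxl3 had 16.9 and 22.2 FPKM and Loxl4 had 11.5 and 6.29 FPKM, log2 fold changes of 0.37 and -0.78. Neither passed 2-fold.

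The family sum was nearly equal, at 440.7 FPKM in WT and 436.8 FPKM in the KO-labelled library, while its makeup differed. Lox held 89.9% of it in WT and 83.8% in the KO-labelled library. Loxl1 held 3.45% and 9.69%, Loxl3 held 3.83% and 5.08%, and Loxl4 held 2.61% and 1.44%. Loxl1 therefore lay below Loxl3 in WT and above it in the KO-labelled library. The value of Lox was 26.0 times that of Loxl1 in WT and 8.65 times that of Loxl1 in the KO-labelled library.

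**Figure D2:**
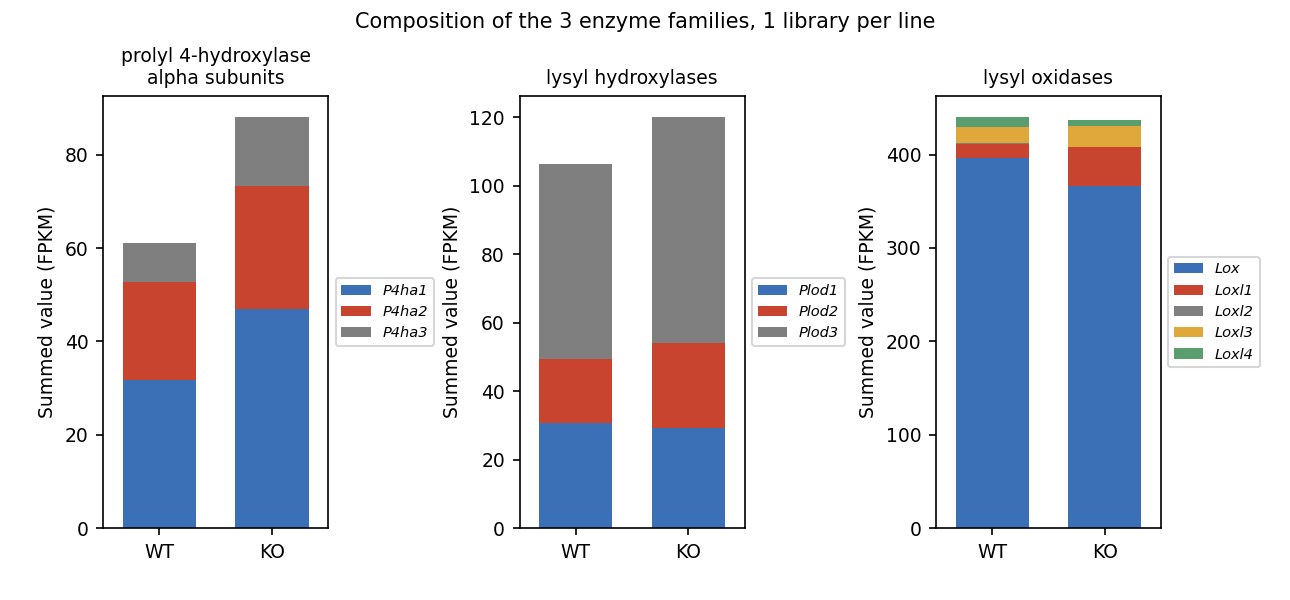
Stacked bars of the FPKM of each gene in the prolyl 4-hydroxylase alpha subunit, lysyl hydroxylase and lysyl oxidase families, 1 bar per library, with separate axes that start at 0. The alpha subunits sum to 61.1 and 88.2 FPKM, while the lysyl oxidases sum to 440.7 and 436.8 FPKM with a wider Loxl1 segment in the KO-labelled library.

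The fibrillar collagens, a part of the substrates of these enzymes, differed more than the enzymes, with a median log2 fold change of 0.78 against 0.21. Other collagen types were not examined here. Of 9 fibrillar collagen and elastin genes 6 passed the filter. All 6 had a log2 fold change above 0, against 50.7% of all genes tested. Of the 6, 2 were more than 2-fold higher in the KO-labelled library, against 2.84% of all genes tested. Those were Col1a1, with 9.66 and 273 FPKM, and Col1a2, with 237 and 621 FPKM. The smallest change was that of Col5a1, with 41.3 and 42.2 FPKM. The 8 fibrillar collagen genes summed to 706 FPKM in WT and 1575 FPKM in the KO-labelled library, which is 2.23 times the WT sum. The sum of the myoblast markers, 198.7 and 25.8 FPKM, moved the opposite way between the same libraries, and their part was not tested. Of the 5 markers past the filter 4 were lower in the KO-labelled library, while Myf5 was higher, with 9.14 and 20.3 FPKM.

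Per FPKM of fibrillar collagen, each enzyme group had a lower ratio in the KO-labelled library. All the ratios share the collagen sum as denominator, which was 2.23 times the WT sum, while the enzyme groups were between 0.991 and 1.44 times their WT values, so the lower ratios come from the denominator. The ratios for the lysyl oxidases, Bmp1 and the alpha subunits were added after the values were seen. For Serpinh1 this ratio was 0.756 in WT and 0.338 in the KO-labelled library. With Col1a1 left out of the collagen sum, a variant added once its value was known, the ratio for Serpinh1 was 0.767 and 0.409. For the lysyl hydroxylases it was 0.151 and 0.0764, for the lysyl oxidases 0.624 and 0.277 and for Bmp1 0.0400 and 0.0189. For the prolyl 4-hydroxylase alpha subunits it was 0.0866 and 0.0560. The ratio in the KO-labelled library was 0.647 times that in WT for the alpha subunits and between 0.444 and 0.507 times for the other groups. These are ratios of RNA and say nothing of the amount or activity of the proteins.

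**Figure D3:**
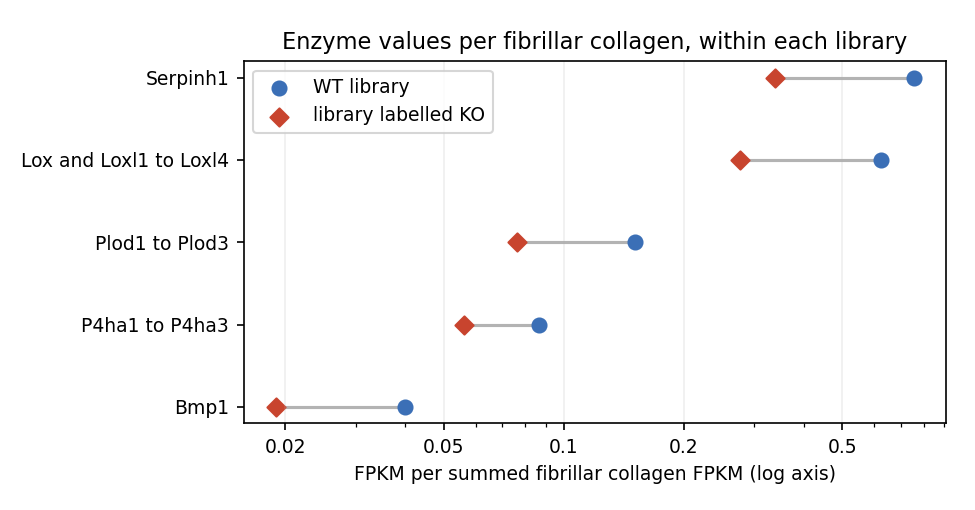
FPKM of each enzyme group divided by the summed FPKM of 8 fibrillar collagen genes in the same library, on a log axis, with WT as circles and the library labelled KO as diamonds. Every group lies further left in the KO-labelled library, as the shared collagen sum was 2.23 times its WT value, and Serpinh1 goes from 0.756 to 0.338.

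Neighbouring genes in these libraries shared changes along some chromosomes, so each member was also set against the genes that start within 5 Mb on either side. Loxl1 has 7 exons and lies on the minus strand of chromosome 9, between 58195014 and 58220495 (GRCm39). Its 68 neighbours had a median log2 fold change of 0.32, and 58 of them were above 0. The highest of these neighbours reached 0.85, so 0 of the 68 were above Loxl1. With the median subtracted, Loxl1 had 1.10 and was still more than 2-fold higher, against 2.61% of all genes after the same step. A fall beyond 2-fold was found for 0 of the 9 members after it, with 2.64% of all genes past that limit. The 10 nearest genes had a median of 0.083. Loxl1 overlaps an antisense long noncoding RNA, Gm57034, whose value was not analysed here.

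P4ha1 lies on chromosome 10 from 59159092 to 59209126 on the plus strand, and its 43 neighbours had a median of 0.20. Subtraction took its log2 fold change from 0.55 to 0.35. Its 10 nearest genes had a median of 0.29. P4ha2, on chromosome 11 from 53981553 to 54022494 on the plus strand, had a neighbour median of -0.02 and kept 0.34. After this step P4ha1 and P4ha2 stood at nearly the same value, while P4ha3 stood at 0.73. Plod2 lies on chromosome 9 from 92424119 to 92490494 on the plus strand, and 12 of its 30 neighbours had a higher log2 fold change than Plod2 itself. Its value went from 0.39 to 0.28. The 10 genes nearest to Plod2 had a median of 0.54, above the value of Plod2 itself.

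Loxl2 and Bmp1 are both on chromosome 14, from 69846209 to 69933283 on the plus strand and from 70711689 to 70758178 on the minus strand, 778 kb apart. The medians of their neighbours were -0.03 and -0.05, both close to that of all genes. Loxl2 overlaps R3hcc1 on the opposite strand, which had 16.0 and 14.3 FPKM. Serpinh1, on chromosome 7 from 98994220 to 99005076 on the minus strand, had -0.03 after subtraction. Plod1, on chromosome 4 from 147991574 to 148021356 on the minus strand, had 0.01, and Plod3, on chromosome 5 from 137015827 to 137025502 on the plus strand, had 0.33. Lox, on chromosome 18, had -0.22 and Bmp1 had 0.13.

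**Figure D4:**
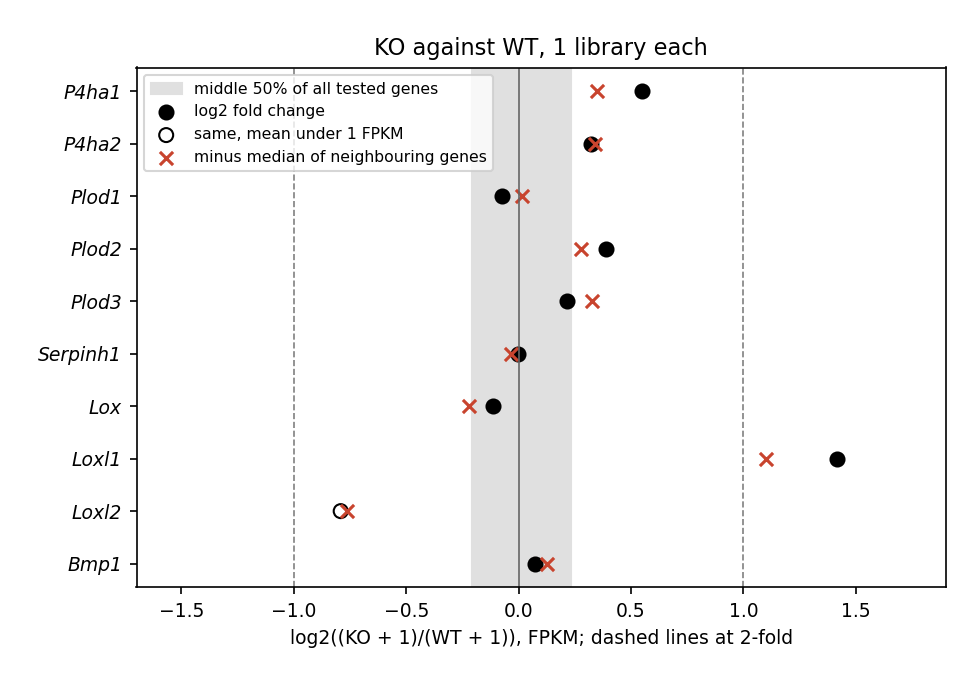
Log2 fold change of each member for the library labelled KO against WT on the log2(FPKM + 1) scale (black), and the same relative to the median of nearby genes (red crosses). The grey band is the middle 50% of all genes tested and the dashed lines mark 2-fold. Loxl1 is beyond 2-fold in both forms, and the open symbol marks Loxl2, whose mean is under 1 FPKM.

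The partners of the members were compared from lists of related genes. Of 12 other genes of collagen hydroxylation and its glycosylation 10 passed the filter. Of these, 7 had a log2 fold change above 0 and 3 below, against 50.7% and 49.3% of all genes. More than 2-fold changed were 0 of the 10, against 6.27% of all genes tested in either direction. Among these 10, the highest log2 fold change was that of P4ha3 and the lowest that of P4hb, at -0.08, both described above. The median of the same 10 was 0.09. P3h2, a prolyl 3-hydroxylase under the filter, had 0.112 and 0.888 FPKM, a log2 fold change of 0.76. Crtap, a subunit of the prolyl 3-hydroxylase complex, had 70.4 and 69.2 FPKM. Ppib, the cyclophilin of that complex, had 267 and 377 FPKM, a log2 fold change of 0.50, with a neighbour median of 0.30.

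Of 3 other crosslinking enzymes 0 were more than 2-fold changed, against 6.27% of all genes tested, and the median was 0.37. Tgm2, a transglutaminase, had 0.983 and 2.27 FPKM, a log2 fold change of 0.72, which became more than 2-fold with a pseudocount of 0.1. Of 9 other genes of propeptide processing only 3 passed the filter, with a median of 0.12. Of these 3, 0 were more than 2-fold changed, against the same 6.27% of all genes. Pcolce, an enhancer of Bmp1, had 479 and 465 FPKM, the lowest change of these 3 at -0.04, and Pcolce2 had 12.2 and 16.7 FPKM, the highest at 0.43. The tolloid proteinases Tll1 and Tll2, relatives of Bmp1, were listed at 0 in both libraries. Mep1a, the metalloproteinase meprin alpha, had 0.056 and 0.076 FPKM, far under the filter.

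Several of the enzymes need ascorbate or copper, and 6 genes of the supply of these cofactors were examined. Of the 5 that passed the filter 3 were above 0 and 2 below, against 50.7% and 49.3% of all genes. The median was 0.23, and 0 were more than 2-fold changed, against 6.27% of all genes tested. Slc23a2, an ascorbate transporter, had 30.6 FPKM in WT and 16.0 FPKM in the KO-labelled library, or a log2 fold change of -0.89. Atp7a, the copper transporter that loads lysyl oxidases, had 4.40 and 6.40 FPKM, a log2 fold change of 0.45. Relative to WT, Slc23a2 was thus lower and Atp7a higher, each by less than 2-fold.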

How the data were processed

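RNA sequencing values of 2 C2C12 libraries, 1 of WT and 1 of Gne KO cells, were used. The authors deposited 1 value per gene symbol, taken here as FPKM because the column totals, 568543 for WT and 574253 for KO, are unequal and the files name no unit. A TPM table restricted to these genes would give the same changes up to 1 factor per library. The submitters' processing notes list Trim Galore 0.6.6, STAR 2.7.9a and RSEM 1.3.3. The build is GRCm38 in those notes and GRCm39 in the paper's methods. Read numbers are not given in the sources used here. Among 406 genes between 0.02 and 0.1 FPKM in both libraries the most frequent KO to WT ratio, in bins of 0.1 on the log2 scale, was 1.11, which would give the depth of WT relative to KO if such genes had equal read numbers. With single libraries and no counts, no error or interval could be computed. The labels name a TruSeq kit and the paper's methods an MGI kit, both strand-specific.

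Symbols that came more than once, 24 of 21853 rows, were reduced to the row of higher mean. Genes averaging 1 FPKM or more over both libraries were compared as log2((KO + 1)/(WT + 1)), and beyond 2-fold means beyond 1 on this scale. The members and gene lists were chosen with earlier results of these data known. All 10 members are named, and of each list the genes beyond 2-fold and those with the highest and lowest change. Any other gene was named with its value known. GENCODE vM39 (GRCm39) gave a position to 10164 of these 10542 genes. Promoter sequences came from RefSeq on GRCm38.p6, and protein sequences were not used here. The procedure was run on data simulated from the WT values, with little noise and large planted changes. That checks the code and cannot show how reliable calls near 2-fold are in these libraries. Pseudocounts, filters, scalings, summed duplicates and subtraction of the neighbour median were tried as alternatives. Python 3.11.15, numpy 2.4.6 and pandas 2.3.3 were used.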

Additional observations from a re-analysis of the deposited data

How the results depend on the processing

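No paired analysis was possible because each line has 1 library and no test was made, and for the same reason no replicate could be left out. A median was taken as moved beyond 0.1 on the log2 scale and a count beyond 1.5 times. Loxl1 was the 1 member more than 2-fold higher under each of the 9 alternatives, with log2 fold changes between 1.10, after subtraction of the neighbour median, and 1.47, with a pseudocount of 0.1. The median of the members stayed within 0.1 of 0.21 under all 9. The number of members more than 2-fold lower went from 0 to 1, which is Loxl2, without a filter and with a pseudocount of 0.1, a setting added with the data known. Plod1 changed sign, to 0.01, after subtraction of the neighbour median. Against 6.27% of all genes, none of the 36 filtered genes among other enzymes, export, chaperone and cofactor genes passed 2-fold, a count of 0. This became 1 higher and 1 lower gene with a pseudocount of 0.1, 1 lower gene with scaling of both libraries to an equal sum, 1 lower gene after subtraction of the neighbour median, and 2 higher and 1 lower gene without a filter and with a pseudocount of 0.1. Under that last setting 3 hypoxia-related genes were more than 2-fold lower, against 1, and 4 fibrillar collagen genes higher, against 2. Among all genes, 299 higher and 362 lower became 102 and 176 with a pseudocount of 5, 145 and 221 with the minimum mean raised to 5 FPKM, and 860 and 900 without a filter and with a pseudocount of 0.1. Values under 1 FPKM, as for Loxl2, are limited by a depth that is unknown.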

Other observations

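Genes of procollagen export and general ER folding gave further values that belong to no comparison of the enzymes themselves. Of 8 genes of procollagen export and support, 5 had a log2 fold change above 0, against 50.7% of all genes tested. The other 3 were below 0, and the median log2 fold change was 0.03. Mia3, the ER exit receptor known as TANGO1, had the highest at 0.47, with 57.5 FPKM in WT and 80.0 FPKM in the KO-labelled library. Tmem38b, an ER cation channel whose loss is known to disturb collagen modification, had the lowest, with 7.33 and 3.41 FPKM and a log2 fold change of -0.92. Tmem38b lay just inside 2-fold and was -1.01 after the median of its neighbours was subtracted.

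Of 7 general ER folding factors 5 were above 0 and 2 below, against 50.7% and 49.3% of all genes. Of the 7, 0 were more than 2-fold changed, against 6.27% of all genes tested. Hsp90b1, an ER chaperone of the HSP90 family, had 274 FPKM in WT and 445 FPKM in the KO-labelled library, or a log2 fold change of 0.70, beside a neighbour median of 0.34. Calr, the lectin chaperone calreticulin, had 837 and 492 FPKM, a log2 fold change of -0.77. The genes around Calr had a median of -1.47, and relative to it the value was 0.71.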
